A study of Arabidopsis thaliana with 4 samples.

Results

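The response of wild-type WS seedlings to abscisic acid (ABA) was read from 2 of the 4 arrays of the series, the array of ABA-treated WS plants and the array of WS plants labelled as control. Each array carried RNA of whole 10-day-old Arabidopsis thaliana plants of the ecotype ws-2, pooled from 10 plants, with no genetic modification given in the labels. The plants grew on Murashige and Skoog agar at 21 °C under 16 h of light and 8 h of dark, and the treated pool received 100 µM ABA for 3 h. No treatment is recorded for the control plants. The same 2 conditions were measured for a line of the same ecotype labelled gpa1, with a T-DNA insertion that the labels place in At3g26300. The annotation used here names that locus CYP71B34, a cytochrome P450. It read 105.4 on the WS control array and 116.7 on the gpa1 control array. Whether the insertion lies in that locus was not tested, so these readings say nothing about the gene that the line is named for. The arrays of the gpa1 line enter the common floor here and are set beside WS in the closing observations. Of the 22810 probe sets on an array, 22746 remained once the 64 control probe sets were set aside. There was 1 array per group, so no value below has a replicate check, a standard deviation or a p-value, and the precision is limited by the number of arrays.

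ABA is the hormone through which plants respond to drought, salt and cold and through which seeds stay dormant. In Arabidopsis, receptors that have bound ABA hold back a group of protein phosphatases, which frees protein kinases to activate bZIP transcription factors and ion channels. The targets known from vegetative tissue include late embryogenesis abundant (LEA) proteins and dehydrins, which protect cells that lose water, while the hormone also closes stomata and slows the growth of shoots and roots. No gene of the receptors, of the phosphatases or of the kinases was among the named probe sets, so that part of the pathway was not analysed here.

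Values are deposited probe-set intensities on a linear scale, with the same 2%-trimmed mean of 100.0 on both arrays. Intensities below 19.2, the 30th percentile over the 4 arrays, were raised to that floor, and a fold against the floor is given as "at least". A probe set was compared where its brighter WS array reached 38.4, which is 2 times the floor. At that level a probe set that sat at the floor on 1 array had to differ at least 2-fold, and these cases are counted separately below. In bulk tissue, fewer cells of a type and less RNA per cell cannot be told apart.

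The arrays differed in technical readings. The median intensity was 48.0 on the control array and 43.5 on the ABA array, and 28.6% and 30.8% of the probe sets lay at or below the floor. The scanner background was 56.26 on the control array and 69.51 on the ABA array, the geometric mean of 9 spike-in probe sets was 383 and 217, and the probe set of 25S ribosomal RNA read 2236 and 959. The 3-prime probe set of actin was 6.09 times as bright as its 5-prime probe set on the control array and 8.55 times on the ABA array, and that of GAPDH 1.93 and 2.14 times. The part of these readings in the differences described below was not tested. Of the 24 marker genes set down for shoot, root, guard cell and seed, only 5 had a named probe set. RCA, the Rubisco activase of green tissue, read 5487 without and 4082 with ABA, a log2 difference of -0.43. PYK10, a beta-glucosidase of roots, read 3088 and 2227, a log2 difference of -0.47. The root hair expansins EXPA7 and EXPA18 differed by -0.92 and -1.27, and the guard cell factor FMA by -0.29. Markers of shoot, root and guard cell were all above the floor on both arrays. All 5 read lower on the ABA array as deposited, as did 62.1% of all genes compared. After quantile normalization RCA was at 0.03 and PYK10 at -0.27.

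Transcripts with a large difference were mostly higher with ABA. Of 13561 probe sets compared, 1251 (9.22%) were at least 2-fold higher and 1054 (7.77%) at least 2-fold lower on the ABA array. At 4-fold or more the counts were 391 higher and 80 lower, at 8-fold or more 115 and 16, and at 16-fold or more 43 and 2. The control array was at the floor for 225 of the 1251 and the ABA array for 194 of the 1054. The median log2 difference over all probe sets compared was -0.17, with the 5th percentile at -1.16 and the 95th at 1.51. Among the 7166 genes with a probe set of their own and a name or locus, 594 (8.29%) were higher and 527 (7.35%) lower, with a median of -0.18. The control array was at the floor for 106 of these 594 genes and the ABA array for 100 of these 527. These shares are the background for the gene families below.

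**Figure D1:**
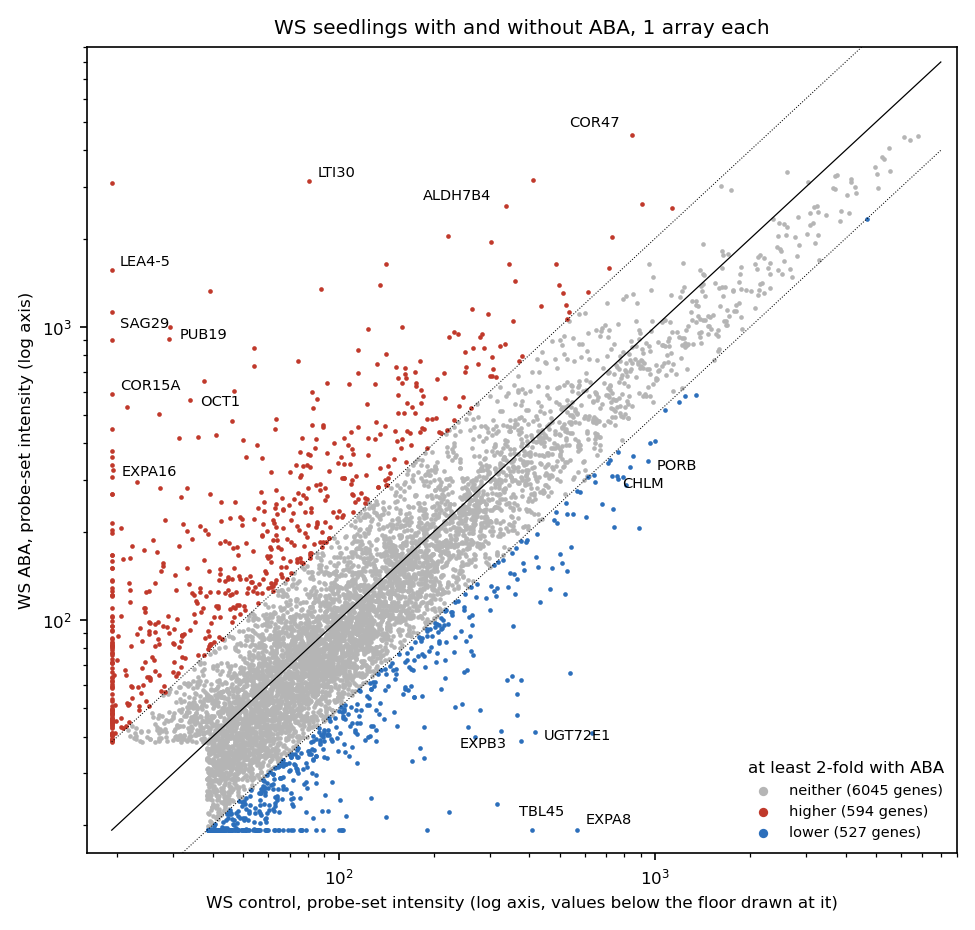
Intensity of each of the 7166 genes compared on the WS control array (x) and the WS ABA array (y), both axes logarithmic, with values below the floor of 19.2 drawn at it. Red points are the 594 genes at least 2-fold higher with ABA, blue points the 527 at least 2-fold lower, and the dotted lines mark 2-fold. The red points reach farther from the diagonal than the blue ones.

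How well a single array fixes a difference can be read in part from the genes that have a pair of probe sets. For the 42 genes with 2 probe sets compared, the log2 differences of the pair lay a median of 0.36 apart, and 90% of the pairs lay within 0.91. For 6 of these genes at least 1 probe set differed 2-fold, in 2 of them both did and in the same direction, and in none did they go opposite ways. Both probe sets were read from the same RNA, so this covers no difference between plants. Dim probe sets were lower more often. Among the dimmest 3391 of the probe sets compared, 10.0% were higher and 14.1% lower, against 10.1% and 4.72% among the brightest 3390.

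Genes listed for proteins that protect drying cells were higher with ABA where they could be compared. The list was built from gene symbols, so genes that carry only a locus number lie outside it. The 7 compared members of the list of LEA, dehydrin and cold-regulated (COR) proteins were each at least 2-fold higher with ABA, but 4 of them were at the floor in the control and entered the comparison only through the ABA array. The other 3 were above the floor on both arrays. LTI30, a dehydrin also called XERO2 (AT3G50970), read 80.9 without ABA and 3139 with it, a 38.8-fold difference. COR47, another dehydrin (AT1G20440), read 844 and 4508, a 5.34-fold difference. COR15B, which encodes a membrane-protecting protein of the chloroplast stroma (AT2G42530), read 35.1 and 98.6, a 2.81-fold difference. COR47 was thus well above the floor without the hormone, while LTI30 was low.

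The remaining members began at the floor. LEA4-5 (AT5G06760) read 7.8 without ABA and 1558 with it, at least 81.1-fold higher. COR15A (AT2G42540), which follows COR15B in the RefSeq gene order and is a close relative of it, read 4.2 and 589.9, at least 30.7-fold higher. LEA18 (AT2G35300) read 0.5 and 125.2, at least 6.52-fold higher. AtLEA4-1 (AT1G32560) read 1.8 and 40.7, at least 2.12-fold higher and only just above the limit for comparison. COR15A and COR15B are similar in sequence, so their probe sets may share some signal. The list's 2 remaining members, LEA and M10, stayed below 5 on both arrays (2 and 4 for LEA, 1 and 0.8 for M10). None of the 3 genes listed under seed oil body and storage proteins could be compared. OLEO3, an oleosin, read 25.9 without and 31.4 with ABA, PAP85, a seed storage protein, 30.4 and 25.8, and M17 0.2 and 0.3, all too low to compare.

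Genes known for ABA and drought signalling were divided. Of 19 genes of that list, 16 were compared, 6 were at least 2-fold higher and 1 lower, and the median difference was 0.09. PUB19, a U-box ubiquitin ligase (AT1G60190), read 29.1 without and 909 with ABA, a 31.2-fold difference. Its relatives PUB22, PUB23 and PUB24, ligases known from drought responses, did not reach 2-fold, with log2 differences of -0.48, 0.14 and 0.00. STZ, a zinc finger repressor also called ZAT10 (AT1G27730), read 58.3 and 253.5, a 4.35-fold difference. HIS1-3, the drought-inducible linker histone (AT2G18050), read 62.5 and 214.5, a 3.43-fold difference, and it was the only one of 6 compared histone genes past 2-fold. SAT32, a gene named for salt tolerance, was 3.40-fold higher.

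PRN, a pirin that binds the G protein alpha subunit (AT3G59220), read 102.7 without and 306.1 with ABA, a 2.98-fold difference. TIL, a lipocalin of the plasma membrane named for its induction by temperature (AT5G58070), read 717.9 and 1590, a 2.21-fold difference. XERICO, a RING protein that raises ABA levels when overproduced, read 138.9 and 119.4 and was among the 9 that did not reach 2-fold. The lower member was MYC4, a bHLH factor of jasmonate signalling (AT4G17880), which read 49.2 without ABA and 13.4, below the floor, with it, at least 2.56-fold lower. The jasmonate factor MYC3 differed by 0.46 on the log2 scale.

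**Figure D2:**
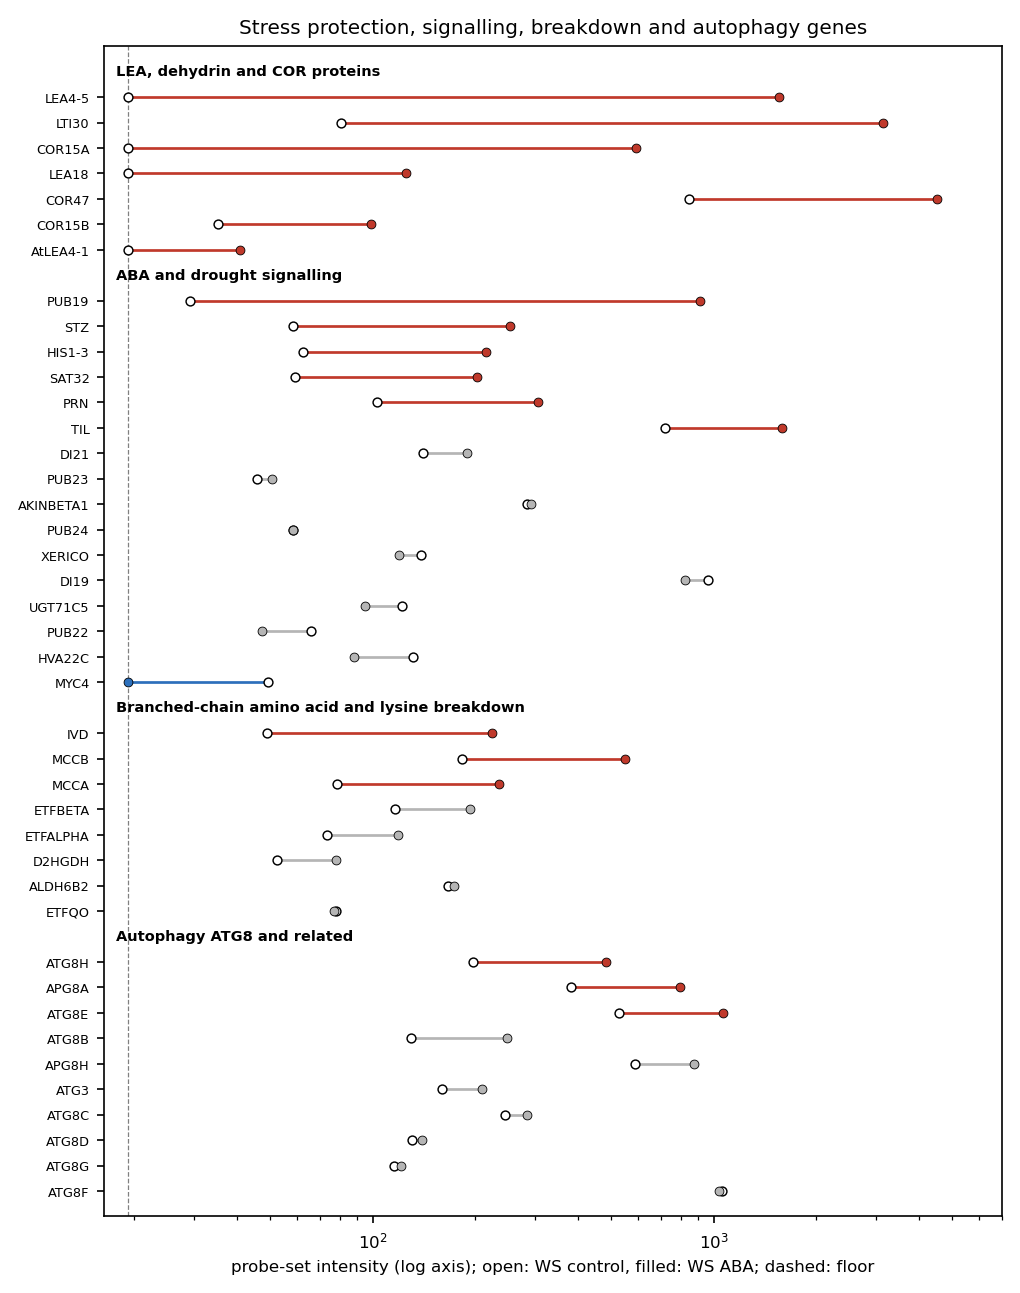
Intensity without ABA (open circles) and with ABA (filled circles) of each compared gene of 4 lists, on a logarithmic axis, with values below the floor of 19.2 (dashed line) drawn at it. Red marks genes at least 2-fold higher with ABA, blue at least 2-fold lower and grey neither. LTI30, LEA4-5, PUB19 and COR15A span the longest distances, and ATG8E the shortest among those marked red.

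Genes of amino acid and nitrogen breakdown differed within and between lists. Of the 8 genes for branched-chain amino acid and lysine breakdown, all were compared, 3 were at least 2-fold higher and none lower, and the median was 0.71. The 3 were enzymes of leucine breakdown. IVD, isovaleryl-CoA dehydrogenase (AT3G45300), read 49 without and 224.1 with ABA, a 4.57-fold difference. MCCA and MCCB, the subunits of methylcrotonyl-CoA carboxylase, read 78.6 and 182.7 without and 233.8 and 548.9 with ABA, differences of 2.97-fold and 3.00-fold. The electron transfer flavoprotein, which takes up electrons from IVD, did not reach 2-fold, with 0.73 for its beta subunit ETFBETA, 0.69 for ETFALPHA and -0.02 for the quinone oxidoreductase ETFQO on the log2 scale. In the list of other amino acid and nitrogen breakdown, 1 of 9 compared genes was higher and 1 lower, and the median was -0.45. Of the 9, 4 lay above 0 and 5 below. DELTA-OAT (0.99) and MGL (0.90) lay above, and DELTA-OAT passed 2-fold after median centring (1.07) and quantile normalization (1.00). The aminotransferases BCAT4 (-0.85) and ATBCAT-5 (-0.63), placed in this list, lay below. ASPGB1, an asparaginase, was 2.10-fold higher, and ALN, the allantoinase of purine breakdown, was 2.12-fold lower, from 578.3 to 272.3.

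Aldehyde dehydrogenases showed 1 large difference among 8 compared genes. ALDH7B4, a stress-inducible member (AT1G54100), read 338.4 without and 2574 with ABA, a 7.61-fold difference. The other 7 lay between -0.66 (ALDH11A3) and 0.10 (ALDH10A9) on the log2 scale. In the respiratory chain and tricarboxylic acid cycle, 3 of 18 compared genes were at least 2-fold higher and none lower. NDB2 and NDB4, external NAD(P)H dehydrogenases that bypass the proton-pumping complex, read 123.6 and 5.6 without ABA and 417.3 and 46.1 with it. NDB2 was 3.38-fold higher and NDB4 at least 2.40-fold, while NDB1 and NDB3 differed by -0.59 and 0.42 on the log2 scale. SDH1-1, the flavoprotein subunit of succinate dehydrogenase, was 2.21-fold higher. ICL, the isocitrate lyase of the glyoxylate cycle, read 1.4 without ABA and 82 with it, at least 4.27-fold higher, and ATSPS4F, a sucrose phosphate synthase, was 2.23-fold lower.

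All 9 compared ATG8 genes, which encode the small protein conjugated to autophagosome membranes, lay between -0.03 and 1.29 on the log2 scale, with a median of 0.58 against -0.18 for all genes. ATG8H read 197.2 without and 483.3 with ABA, a 2.45-fold difference. APG8A, one of the ATG8 genes, read 380.3 and 795.1, a 2.09-fold difference, and ATG8E 528.8 and 1061.8, a 2.01-fold difference that fell just below 2-fold (0.995 on the log2 scale) after quantile normalization. ATG8B, at 0.93, passed 2-fold only after median centring, with 1.01. ATG3, the conjugating enzyme of the same pathway, differed by 0.40. Vacuolar processing enzymes, the proteases that mature vacuolar proteins, were higher in 2 of 3 compared genes. BETA-VPE was 2.34-fold higher and ALPHA-VPE at least 2.05-fold higher from the floor, while GAMMA-VPE read 1627 and 1812.

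Sugar transporters went both ways, with 3 of 12 compared genes higher and 3 lower. SAG29, the senescence-associated SWEET15 exporter (AT5G13170), read 6.7 without ABA and 1125 with it, at least 58.6-fold higher. SWEET4 read 23 and 89.8, a 3.90-fold difference, and SFP1, a sugar porter, was 2.24-fold higher while its relative SFP2 differed by -0.14 on the log2 scale. All 3 lower genes encode sugar transporters of the vacuole membrane. SWEET16 read 169.4 and 59.5, a 2.85-fold difference, SWEET17 134.1 and 47.9, a 2.80-fold difference, and TMT1 614.6 and 306.9, a 2.00-fold difference. TMT1 did not reach 2-fold after median centring (-0.93 on the log2 scale). TMT2, its relative, differed the other way, by 0.83.

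Ion and nutrient transporters were higher in 3 and lower in 2 of 10 compared genes. OCT1, an organic cation transporter (AT1G73220), read 33.9 without and 562.4 with ABA, a 16.6-fold difference, and OCT4 was 2.10-fold higher. MTP11, a manganese transporter, read 288.1 and 844.6, a 2.93-fold difference. CHX16, a cation and proton exchanger, read 62.9 and 2.1, at least 3.28-fold lower, and NRT2.5, a high-affinity nitrate transporter, was 2.42-fold lower. NRT2.5 read 19.6 with ABA, just above the floor. These transporters act on unlike substrates and shared no direction.

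Expansins, which loosen the cell wall as cells enlarge, split by subfamily. Of 13 compared genes of 18, 5 were at least 2-fold higher and 6 lower. The 4 expansin-like genes were all higher. EXLA1 read 85.7 without and 567.4 with ABA, a 6.62-fold difference, and EXLA3, its neighbour in the gene order, read 13.6 and 48.8, at least 2.54-fold higher. EXLA2 read 26.6 and 170.2, a 6.40-fold difference, and EXLB1 89.2 and 454.7, a 5.10-fold difference. EXLA3 was the 1 of the 4 that entered the comparison from the floor.

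The alpha-expansins were lower in 5 of 7 compared genes and higher in 1. EXPA8 (AT2G40610) read 567.4 without ABA and 3.7 with it, at least 29.6-fold lower and the largest lower difference among the named genes. EXPA15 read 211 and 58.2, a 3.63-fold difference, and EXPA4 222 and 97, a 2.29-fold difference. EXPA9 was at least 2.63-fold lower, and the root hair gene EXPA18 was 2.40-fold lower, from 143 to 59.5. EXPA7, the other root hair gene, read 80.3 and 42.4 and did not reach 2-fold. EXPA16 (AT3G55500) stood apart, at 19.4 without and 324.4 with ABA, a 16.7-fold difference in the other direction. Its control value lay just above the floor of 19.2, so this fold is close to a fold against the floor. Of the beta-expansins, EXPB3 read 256.4 and 43, a 5.96-fold difference, and EXPB1 differed by -0.34 on the log2 scale.

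Enzymes that cut or modify wall polysaccharides also differed within families. GH9 endoglucanases, which act on cellulose and related glucans, were lower in 3 of 6 compared genes and higher in none, with a median of -1.16. GH9C2 read 217.5 and 63.3, a 3.44-fold difference, GH9B13 131.8 and 38.8, a 3.40-fold difference, and GH9B8 91.7 and 33.9, a 2.71-fold difference. Xyloglucan endotransglucosylases, which cut and rejoin xyloglucan, were higher in 3 and lower in 2 of 7. XTH18 read 276.8 and 747.3, a 2.70-fold difference, XTH32 was 2.47-fold higher, and EXGT-A3 was 2.01-fold higher, a difference of 0.93 on the log2 scale after quantile normalization. XTH20 was 2.74-fold lower and XTH26 at least 3.96-fold lower, from 76 to 1.5.

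TBL proteins, of a family that acetylates wall polysaccharides, were lower in 3 and higher in 2 of 15 compared genes. TBL45 (AT2G30010) read 408.2 without and 18.5, below the floor, with ABA, at least 21.3-fold lower. TBL36 read 233.5 and 50.7, a 4.61-fold difference, and TBL28 was at least 2.30-fold lower. TBL37 read 154.4 and 509.5, a 3.30-fold difference in the other direction, and TBL38 was 2.08-fold higher, a difference of 0.99 on the log2 scale after quantile normalization. Among pectin methylesterases, ATPMEPCRB was 4.27-fold higher, from 49.4 to 211, and ATPMEPCRD at least 5.21-fold lower, from 100.1 to 16.4. Cellulose synthase-like genes showed no 2-fold difference in 7 compared.

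**Figure D3:**
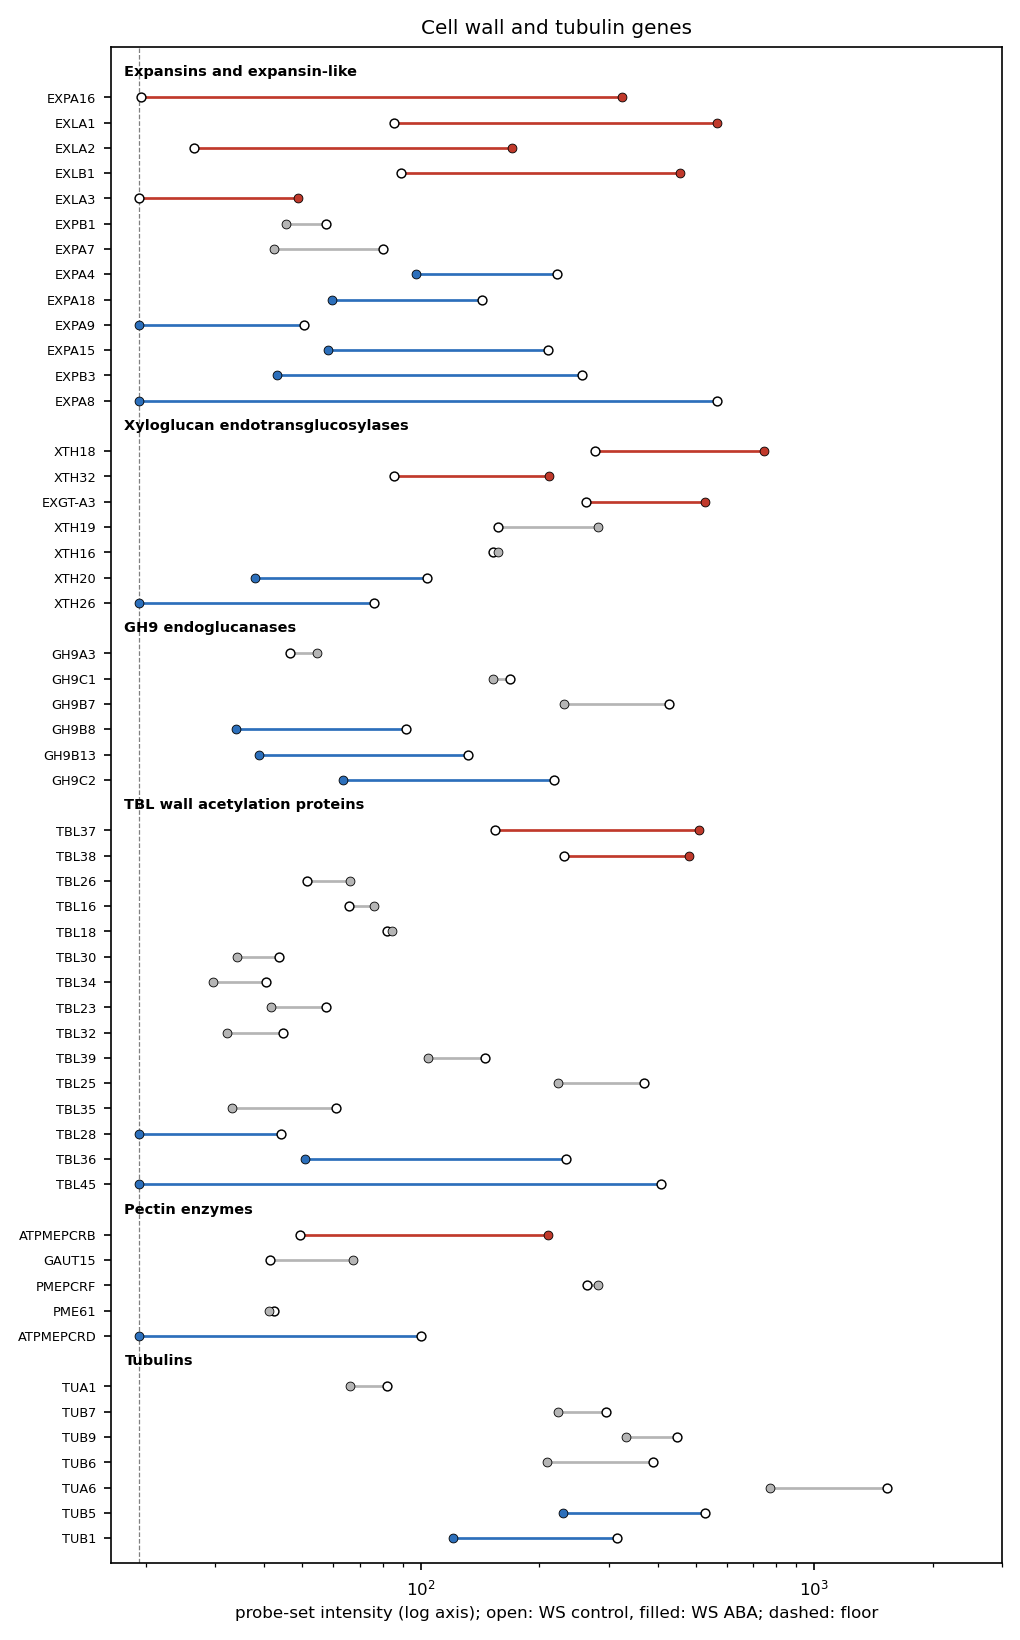
Intensity without ABA (open circles) and with ABA (filled circles) of each compared gene of 5 cell wall families and of the tubulins, on a logarithmic axis, with values below the floor of 19.2 (dashed line) drawn at it. Red marks genes at least 2-fold higher with ABA, blue at least 2-fold lower and grey neither. Expansin-like genes and EXPA16 lie among the higher genes and most other expansins among the lower ones, while all 7 tubulins read lower with ABA.

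The tubulins, which build the microtubules that guide cellulose deposition, were all lower with ABA, beside 62.1% of all genes below 0. Of the 7, 2 were at least 2-fold lower. TUB1 read 315.4 and 121, a 2.61-fold difference, and TUB5 528.1 and 229.7, a 2.30-fold difference. TUA6 read 1535 and 772 and came just short of 2-fold. The other 4 lay between -0.90 (TUB6) and -0.31 (TUA1) on the log2 scale. IQD proteins, calmodulin-binding proteins of which several sit on microtubules, were lower in 3 of 10 compared genes and higher in none. iqd21 read 124.2 and 40, a 3.11-fold difference, IQD19 was 2.63-fold lower and IQD22 at least 2.21-fold lower. The TRM proteins, also known from microtubules, showed no 2-fold difference in 6 compared. Of the actin-binding list, NET4B and NET1D were 2.61-fold and 2.13-fold higher, and WLIM2a was 2.25-fold lower.

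Genes of cell division and DNA replication lay below 0 in all 11 compared members, beside 62.1% of all genes, with a median of -0.46, and 2 were at least 2-fold lower. TOPII, the DNA topoisomerase, read 57.8 and 26.3, a 2.20-fold difference, and BUB3.1, of the spindle checkpoint, 64.5 and 31.6, a 2.04-fold difference. Neither held under every scaling, and 10 of the 11 lay below 0 after median centring and after quantile normalization. TOPII was at -0.99 after quantile normalization, and BUB3.1 at -0.90 after it and at -0.95 after median centring. Both genes are dim, in the intensity range where lower readings were most common.

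Glycosyltransferases of the UGT family, which attach sugars to hormones and secondary compounds, were higher in 7 and lower in 4 of 26 compared genes. UGT84A3, which glucosylates phenylpropanoid acids, read 28.2 without and 219.2 with ABA, a 7.77-fold difference. UGT87A2 read 141.2 and 808.8, a 5.73-fold difference, and UGT73B5 37.6 and 160.2, a 4.26-fold difference. UGT76E11, UGT76B1, UGT85A5 and GT72B1 were also higher, by at least 3.73-fold from the floor, 3.64-fold, 3.31-fold and 2.65-fold. UGT71C5 and UGT71B6, enzymes that glucosylate ABA itself, differed by -0.37 and stayed below the floor.

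The lower UGT genes included both compared members of the UGT72E group, glucosyltransferases that act on lignin precursors. UGT72E1 (AT3G50740) read 417.7 without and 41.5 with ABA, a 10.1-fold difference, and UGT72E2 203.1 and 71.9, a 2.82-fold difference. UGT72B3 was 2.32-fold lower and UGT78D1, a flavonol rhamnosyltransferase, at least 2.70-fold lower. Of 11 compared genes of the phenylpropanoid and flavonoid list, 3 were at least 2-fold higher, 3 lower and 5 neither. The median was -0.19 against -0.18 for all genes, and the 3 lower were UGT72E1, UGT72E2 and UGT78D1. CCR2, here the cinnamoyl-CoA reductase AT1G80820, read 21.9 and 126.3, a 5.77-fold difference. CHIL, a chalcone isomerase-like protein, was 4.06-fold higher and CCOAMT, a caffeoyl-CoA methyltransferase, 3.68-fold higher. CCOAMT read 19.9 without ABA, just above the floor.

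Among the glutathione transferases of the tau class, 2 of 8 compared genes were higher and 3 lower. GSTU25 read 62.9 and 446.5, a 7.10-fold difference, and GSTU16 was 3.50-fold higher. GSTU28, GSTU27 and GSTU20 were 3.10-fold, 3.06-fold and 2.44-fold lower. GR1, the glutathione reductase of cytosol and peroxisomes, read 251.8 and 823.6, a 3.27-fold difference. Of 11 beta-glucosidases compared, BGLU24 was at least 6.27-fold higher from the floor and BGLU40 2.75-fold higher. CYP71B26 and CYP71B37, of a cytochrome P450 subfamily, went opposite ways, 3.09-fold higher and at least 3.49-fold lower.

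Chloroplast functions encoded in the nucleus were lower with ABA, mostly by less than 2-fold. Over 5 such lists, 36 genes were compared, none was at least 2-fold higher, 6 were lower, 31 (86.1%) lay below 0 beside 62.0% of all nuclear genes, and the median was -0.56 against -0.18. After quantile normalization, 30 lay below 0 and the median was -0.37 against -0.13 for all genes. The synthesis of tetrapyrroles and chlorophyll held 4 of the 6, out of 9 compared, and the others were LIL3:2 and CRR42. PORB, protochlorophyllide oxidoreductase, read 952.5 and 347.3, a 2.74-fold difference, and CHLM, the methyltransferase of the magnesium branch, 834.3 and 331.8, a 2.51-fold difference. HEME2 and HEME1, uroporphyrinogen decarboxylases, were 2.14-fold and 2.08-fold lower, HEME1 only to -0.98 on the log2 scale after median centring. HEMA2, a glutamyl-tRNA reductase at the start of the pathway, differed the other way, by 0.78.

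LIL3:2, a light-harvesting-like protein needed for chlorophyll synthesis, read 647 and 296.1, a 2.19-fold difference. The 5 photosystem subunits compared, PSAE-1, PSBW, PSBY, PSAN and PSB27, lay close together between -0.59 and -0.41 on the log2 scale and did not reach 2-fold. After quantile normalization they lay between -0.49 and -0.12. Of the Calvin cycle, PRK, phosphoribulokinase, read 3287 and 1686, just short of 2-fold, and SBPASE, sedoheptulose bisphosphatase, differed by -0.61. Outside these metabolic lists, Cpn60beta2, a subunit of the chloroplast chaperonin, was 2.54-fold lower. MSRB5, a methionine sulfoxide reductase counted with the redox genes and not with the chloroplast lists, was 2.09-fold lower, and at -0.99 after median centring. The shoot marker RCA differed by -0.43, or 0.03 after quantile normalization, and the part of a shift in shoot RNA in these values was not tested.

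Transcripts of the chloroplast genome itself differed less. Their median over 68 compared genes was -0.26, with the middle 50% between -0.46 and -0.09, and 55 (80.9%) lay below 0. After quantile normalization the median was -0.13, as it was for all genes. ndhF, a subunit of the chloroplast NDH complex, read 22.1 without and 81.4 with ABA, a 3.68-fold difference, and petN, of the cytochrome complex, 132.9 and 285.1, a 2.15-fold difference. psbN, which assists photosystem assembly, was 2.14-fold lower. The labelled RNA was primed with oligo(dT), and chloroplast transcripts mostly lack stable poly(A) tails, so these levels depend on how such RNA was primed. The 8 compared mitochondrial genes had a median of -0.08 and none differed 2-fold.

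**Figure D4:**
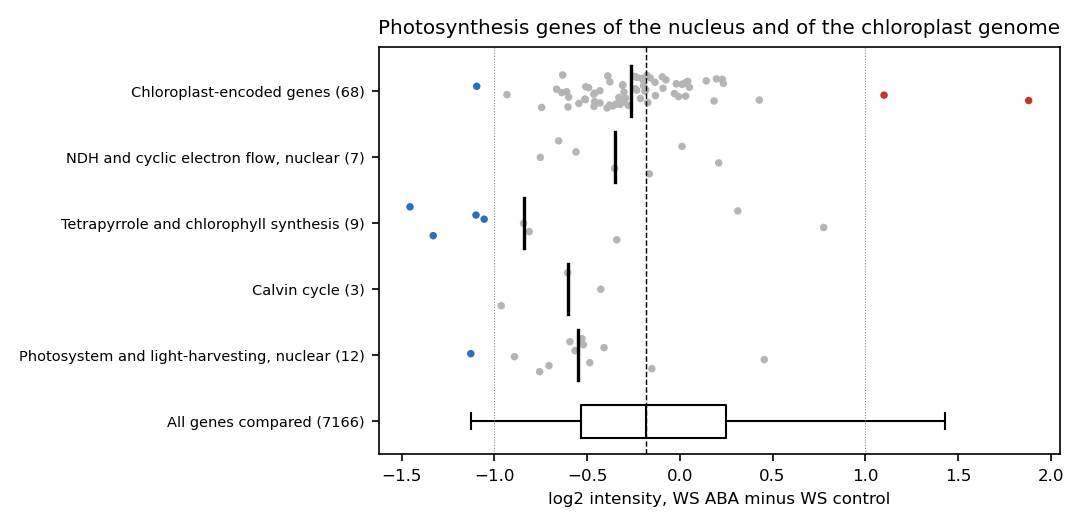
Log2 intensity of WS ABA minus WS control for each compared gene of 4 nuclear lists of chloroplast function and of the chloroplast genome, with black bars at the list medians. The box at the bottom gives all 7166 genes compared (median, middle 50%, whiskers at the 5th and 95th percentile), the dashed line their median of -0.18 and the dotted lines 2-fold. The tetrapyrrole list has its median at -0.84, the chloroplast genome at -0.26.

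Transcription factors differed gene by gene. WRKY6, known from senescence and phosphate starvation, read 45.4 and 223.5, a 4.92-fold difference, while WRKY47 was 2.91-fold lower. BZIP60, a factor of the unfolded protein response, read 207 and 438.2, a 2.12-fold difference, and BZIP28, of the same response, differed by 0.94 on the log2 scale and passed 2-fold only after median centring (1.01). BZIP61 read 89.3 and 18.5, at least 4.65-fold lower. UPB1, a bHLH factor that controls peroxidases in the root, was 3.11-fold higher, and LHW, a bHLH factor of root vascular tissue, 2.31-fold lower. tny, an AP2 factor that restrains growth when overproduced, was 3.05-fold lower.

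In protein turnover, UBC32, a ubiquitin-conjugating enzyme of the endoplasmic reticulum, read 162 and 688.6, a 4.25-fold difference, the only one of 10 compared of its list past 2-fold. PUB43 was 2.37-fold higher and the RING ligase ATL8 at least 2.35-fold higher from the floor. None of 11 compared ubiquitin proteases reached 2-fold. Among heat shock proteins and chaperones, ATHSP22.0, a small heat shock protein, read 30.7 and 126.9, a 4.13-fold difference, and Fes1A, a cofactor of HSP70, was 2.41-fold higher. Another 13 of the 16 compared, among them Hsp70-2 at 0.28 on the log2 scale, did not reach 2-fold.

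Among genes of other hormones, the auxin list held 2 genes at least 2-fold higher and 1 lower of 9 compared. Its median was 0.61 against -0.18 for all genes. GH3.3, which conjugates auxin to amino acids, read 79.8 and 367.7, a 4.61-fold difference, and WES1, of the same family, differed by 0.94 on the log2 scale. The auxin response repressors IAA30 and IAA29 went opposite ways, 3.33-fold higher and 2.63-fold lower. IAA30 read 19.5 without ABA, just above the floor. The gibberellin receptors and their partners showed no 2-fold difference in 5 compared genes, with GID1A and GID1B at 0.23 and 0.05 and the F-box protein SLY1 at -0.46. Ethylene signalling showed none in 4, with EIN3 at 0.21.

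In calcium signalling, the calmodulin-like CML38 was at least 4.23-fold higher from the floor. CML23 was 2.62-fold higher, from 19.6, just above the floor. CML42 was 2.02-fold lower but only -0.94 on the log2 scale after median centring. RALFL32, of the RALF family of secreted peptides, read 106.9 and 395.8, a 3.70-fold difference, whereas RALFL24 and RALFL22 were 2.46-fold and 2.13-fold lower. FER, the receptor kinase of RALF peptides, differed by 0.23 on the log2 scale. Of defence genes, a chitinase named CHI (AT2G43570) was 3.93-fold higher and ChiC, another chitinase, 2.01-fold higher, while ATLP-1, a thaumatin-like protein, was 2.70-fold lower. The defensins PDF2.1 and PDF2.5 also went opposite ways, at least 4.02-fold higher from the floor and 2.94-fold lower.

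In all, 74 lists held 988 genes, of which 649 were compared, and 70 lists had at least 3 compared members. In 10 of them the median lay at least 0.5 above that of all genes on the log2 scale, and in 6 at least 0.5 below. The 10 were the LEA and COR list (2.71), the vacuolar processing enzymes (1.03), the xyloglucan endotransglucosylases (0.85), the immune and pathogenesis-related genes (0.77), the breakdown of branched-chain amino acids and lysine (0.71), the auxin genes (0.61), the autophagy genes (0.49), the UGT glycosyltransferases (0.41), the beta-glucosidases (0.33) and the sugar transporters (0.32). In the LEA and COR list 4 of 7 compared members were at the floor in the control, and so was 1 of 3 vacuolar processing enzymes. The medians of both lists are values of such members, LEA18 and ALPHA-VPE, which had to differ at least 2-fold to be compared. The 6 were the GH9 endoglucanases (-1.16), the expansins (-0.92), the tubulins (-0.90), the SKU5-like oxidases (-0.90), tetrapyrrole synthesis (-0.84) and the IQD proteins (-0.81). Among the 10, the sugar transporters, the xyloglucan endotransglucosylases, the UGT, the auxin and the immune lists each held members past 2-fold in both directions, and so did the expansins among the 6. Lists outside these could still hold many members past 2-fold in both directions, as the glutathione transferases did with 5 of 9. Glucosinolate genes, the circadian clock and temperature genes, the LSM proteins of RNA processing and the ATP citrate lyases had no member past 2-fold in 6, 4, 5 and 4 compared.

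**Figure D5:**
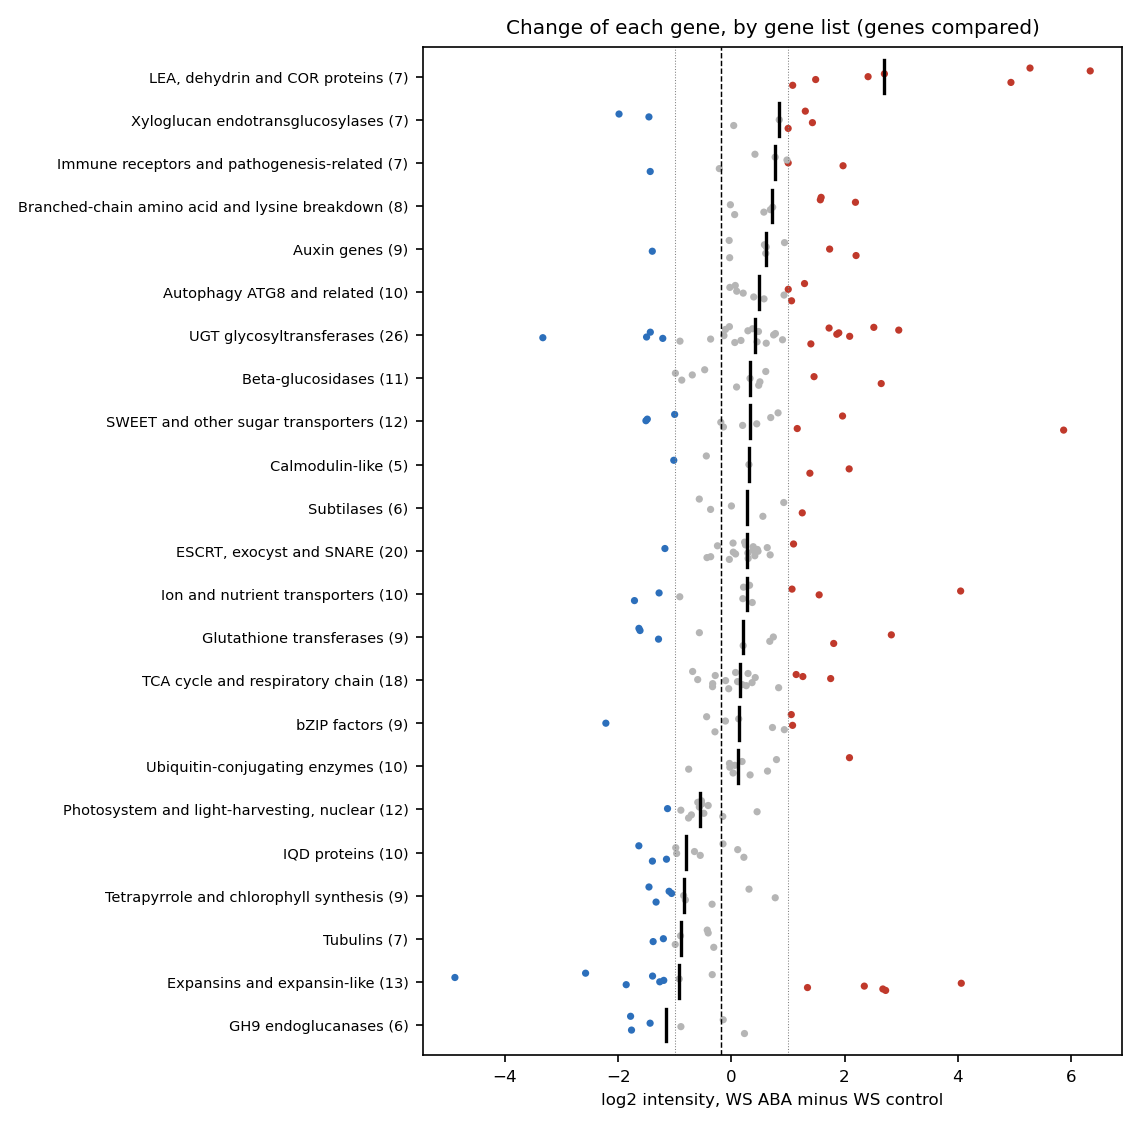
Log2 intensity of WS ABA minus WS control for each compared gene of the lists that have at least 5 compared members and a median at least 0.3 from that of all genes, with the number compared in parentheses and black bars at the medians. Red points are at least 2-fold higher, blue at least 2-fold lower, the dashed line marks the median of all genes at -0.18 and the dotted lines 2-fold. The LEA list is the only one shown with all compared members in red, but 4 of its 7 were at the floor in the control. Those 4 could enter the comparison only by being at least 2-fold higher.

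Most genes with a large difference carried only a locus number in the annotation used, and no role is given to them here. Of the 7166 genes compared, 6083 were of this kind. AT3G02480 showed the largest bound of all named genes, at 1.4 without and 3086 with ABA, at least 161-fold higher. AT3G17520, AT3G15670, AT5G66780, AT5G28520, AT1G24600 and AT1G16850 were also at the floor in the control and at least 46.9-fold to 16.0-fold higher. With both arrays above the floor, AT2G37870 read 29.4 and 996.8, a 33.9-fold difference, AT2G41190 39.2 and 1321, a 33.7-fold difference, and AT1G49450 21.4 and 534.1, a log2 difference of 4.64. AT5G39520, AT3G57010, AT4G33550 and AT1G05340 were between 18.6-fold and 15.3-fold higher.

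In the other direction, AT4G24780 read 632.2 without and 41.3 with ABA, a 15.3-fold difference, and AT4G15390 317.5 and 23.6, a 13.5-fold difference. AT1G19960, AT3G22210 and AT4G21870 were 10.0-fold, 9.73-fold and 8.19-fold lower, and AT5G63180, from 190.9 to 3.6, at least 9.94-fold lower. No other named gene above the floor on both arrays except UGT72E1 was more than 8-fold lower. The direction of neighbouring genes was counted over pairs next to each other in the RefSeq order. Of 184 compared pairs whose first gene was higher, the next gene was higher in 19 (10.3%), and of 157 whose first gene was lower, the next was lower in 21 (13.4%), beside 8.29% and 7.35% among all genes. In 26 of all 2063 pairs compared the neighbours went opposite ways, as AT1G19960 and AT1G19970 did with log2 differences of -3.33 and 2.52. The number to be met among unrelated genes was not worked out, so no result about neighbours is drawn from the 26.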

How the data were processed

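RNA of WS plants with and without ABA was measured on 1 Affymetrix ATH1 array each. Per the labels' protocols, total RNA was primed with oligo(dT) and made into biotin-labelled cRNA. The authors deposited probe-set intensities on a linear scale, all arrays with a 2%-trimmed mean of 100.0. The program that summarised the probes was not given in the sources used here. Detection calls played no part. Log2 of the floored intensities was taken with Python 3.11.15, numpy 2.4.6 and pandas 2.3.3, and the WS control array was subtracted from the WS ABA array. A 2-fold difference was counted, with no test, since each group had 1 array, and the precision is limited by that number. The counting was tested on simulated data.

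The platform annotation gave 1 gene for 13513 probe sets, several for 503 and none for 8730. Of 13356 genes, 13286 matched the RefSeq annotation of TAIR10.1, which gave symbols and gene order but no coordinates, since the files name no build. A gene with several probe sets was represented by the brightest.

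The gene lists, their members and the genes described were chosen with earlier results of these data known. Named genes were the 25 highest and 25 lowest measured on both arrays, the 10 largest bounds per direction, up to 6 members per list with the largest difference (3 of a list with none past 2-fold) and the markers. List members named beyond these, to complete a family or the count of those past 2-fold, and the neighbour AT1G19970 were chosen after their values were seen. Alternatives were other floors, median centring, quantile normalization and other intensity limits.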

Additional observations from a re-analysis of the deposited data

Results flagged for a closer look

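The chloroplast genes ndhF and psbN went opposite ways in WS and in the gpa1 line, each pair of arrays having its own control. ndhF differed by 1.88 on the log2 scale in WS and by -1.12 in gpa1. psbN differed by -1.10 in WS and by 0.84 in gpa1. Opposite signs were common among chloroplast-encoded genes. Of the 68 compared, 22 had the same sign in both lines, and their median was -0.26 in WS and 0.06 in gpa1. However, 65 of the 68 did not reach 2-fold in WS, and the sign of a small difference is easily reversed. Among mitochondrial genes, 2 of 8 compared had the same sign. The share over all genes is not given here. petN was 2.15-fold higher in WS and differed by -0.37 on the log2 scale in gpa1. With 1 array per group the difference was not tested, and for transcripts primed with oligo(dT) the part of priming in it was not tested. Of the 203 named genes past 2-fold in WS, a set without small differences, 199 had the same sign in gpa1.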

How the results depend on the processing

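No paired analysis was possible because each group has 1 array. The count of probe sets at least 2-fold lower came to 1887 when the floor was set at the 15th percentile (an intensity of 5.6) and to 661 at the 45th (37.2), and it was 877 after median centring and 896 after quantile normalization. The brighter part of the probe sets, 6781 of them, held 656 higher and 358 lower, by construction fewer than the 1251 and 1054 given above. Higher calls were 54.3% of all calls, 48.3% and 61.4% under the lower and the higher floor, 60.9% and 59.7% after centring and quantile normalization, and 64.7% among the brighter probe sets. With every probe set above the floor on 1 array compared, 6 lists lay at least 0.5 above and 3 at least 0.5 below the median of all genes, where members near the floor add differences near 0. The cause of the other shifts was not tested. The remaining list counts and the median difference, from -0.17 to -0.09, stayed within 1.5 times or 0.1 of the values above. No named gene past 2-fold changed sign, and 192 of 203 stayed past 2-fold wherever they were compared. Among named genes short of 2-fold, 9 changed sign, 4 after median centring and 6 after quantile normalization, RCA at -0.43 being the largest of them. The share of promoters with an ABA response element, planned as a description, was not run, because no promoter sequences were used here.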
